A study of Homo sapiens and Mus musculus with 16 samples.

Results

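The ubiquitin-specific proteases (USPs) are the largest family of deubiquitinases, enzymes that remove ubiquitin from proteins. Their mRNAs were followed into P-bodies, which are granules of RNA and protein in the cytoplasm, in 4 cell types. Members were chosen by name only, as every gene symbol made of USP and a number, with or without a closing X, except USP10 and USP44, which gave 48 of 22286 genes in the human table and 46 of 15881 in the mouse table. The mouse table held each human member but USP6 and USP18.

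Ubiquitin is a small protein that is joined to lysines of other proteins, and chains of it send proteins to the proteasome or change their activity, partners or position in the cell. A USP cuts that bond with a catalytic cysteine held in a conserved fold, and most members act on a limited set of substrates, such as histones, DNA repair factors, receptors on endosomes or free ubiquitin chains. P-bodies collect mRNAs that are poorly translated. The level of a USP mRNA in sorted P-bodies against the cytoplasm library therefore describes its transcripts in these fractions, and not the amount of the protease.

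The design held 16 libraries in 8 groups of 2: P-bodies and cytoplasm of HEK293T cells (a human embryonic kidney line), of liver bud progenitors and day 20 neurons (both grown from UCLA4, a line of human embryonic stem cells), and of mouse embryonic stem (ES) cells of the line KH2 kept in serum with LIF. Every group, cytoplasm included, carried the P-body protein LSM14A fused to GFP, delivered by a lentiviral EF1a vector in HEK293T and mouse ES cells and by a tetracycline-controlled vector at the AAVS1 locus in the human ES cells; whether each line was a single clone was not stated. P-bodies were sorted as fluorescent particles from lysed cells after nuclei were spun out. The cytoplasm library came from the material before sorting, so it still contained P-bodies. By the study's methods that material was the resuspended pellet of a later, faster spin. RNA left in the supernatant of that spin was in neither fraction, so the cytoplasm library is not the whole cytoplasm. HEK293T and mouse ES libraries were labelled as total RNA made with random primers, and liver bud and neuron libraries as polyA RNA, so library type and cell type cannot be told apart where a cell type of the first pair is set beside 1 of the second. The study's methods describe another mouse ES line and a naive medium for the mouse cells, and the labels were followed here.

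Libraries held 6368953 to 17972284 counts. A true level of 3 counts, about the most that an observed 0 allows, stood for 0.167 to 0.471 CPM (counts scaled to a common library size). The 2 neuron P-body libraries ranked genes less alike than any other pair (Spearman's rho 0.915, against 0.962 to 0.988 elsewhere). Neuron cytoplasm held the neuronal mRNAs DCX at 5080, MAP2 at 3114, STMN2 at 1008, TUBB3 at 591, SYP at 36.1 and RBFOX3 at 7.63 CPM. Mouse ES cytoplasm held the pluripotency mRNAs Nanog at 614, Pou5f1 at 567, Sox2 at 234, Zfp42 at 137, Dppa4 at 14.9 and Lin28a at 6.08 CPM. It also held the neuronal mRNA Stmn2 at 162 CPM. Liver bud cytoplasm held the hepatic endoderm mRNAs APOB at 281, HNF4A at 36.5, TTR at 35.3 and FOXA2 at 8.63 CPM, with AFP at only 7.54 CPM and ALB at 0. It still contained the pluripotency mRNAs LIN28A at 616 and POU5F1 at 80.4 CPM. The liver bud libraries are therefore described by their label, with hepatic endoderm and pluripotency mRNAs both present.

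A short coding stretch shows what the members have in common and how they differ at the RNA level. It spans the 10 codons around the catalytic cysteine (glycine, any pair of residues, asparagine, any residue, glycine, asparagine or alanine, threonine or serine, cysteine, any residue), and a match was found in 42 human members. The 8 stretches printed, none interrupted by an intron, belong to members called in the same direction in all 4 cell types below. They were chosen after their values were seen, and the capitals mark the cysteine codon in the hg38 sequence of GENCODE transcripts. The first 4 encode mRNAs higher in P-bodies and the last 4 mRNAs lower in P-bodies.
USP1: ggactgaataatctcggcaatactTGCtat
USP8: ggacttcgtaacttaggaaatactTGTtat
USP16: ggactcagtaatttgggaaacacaTGTttc
USP45: ggaattacaaatttaggaaatactTGCttt
USP5: ggcatccggaacctgggtaacagcTGCtac
USP11: ggcctcaccaatctgggcaacacgTGCttc
USP19: ggccttgtcaatttaggcaacaccTGCttc
USP22: gggctgatcaaccttgggaacacaTGCttc

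These stretches lay in coding exons at chr1:62441561-62441590 (USP1, plus strand), chr15:50492798-50492827 (USP8, plus), chr21:29037416-29037445 (USP16, plus), chr6:99488699-99488728 (USP45, minus), chr12:6858538-6858567 (USP5, plus), chrX:47240829-47240858 (USP11, plus), chr3:49115502-49115531 (USP19, minus) and chr17:21018074-21018103 (USP22, minus). They held 8 to 14 G or C bases of 30 in the 12 matched members enriched in all 4 cell types (median 12), and 15 to 18 in the 4 depleted in all 4 (median 17), with residues that also differ at the free positions. In mouse the ranges were 8 to 15 (12 members) and 16 to 17 (4 members). Over all matched members the median was 14.5 (8 to 20, 42 members) in human and 15 (8 to 20, 39 members) in mouse. The split did not hold over the family. The human stretches of USP31 and USP49 held 20, while these members were enriched in 2 and 3 cell types and depleted in none.

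Family-wide, USP mRNAs made up more of the P-body libraries than of the cytoplasm libraries in every cell type. In HEK293T cells the members held 0.566% and 0.574% of counts in the P-body libraries and 0.498% and 0.483% in the cytoplasm libraries. The shares were 0.655% and 0.658% against 0.568% and 0.548% in liver bud progenitors, 0.451% and 0.473% against 0.364% and 0.388% in neurons, and 0.779% and 0.766% against 0.707% and 0.697% in mouse ES cells. The P-body shares lay above the cytoplasm shares in each of the 4 cell types, although a share gives most weight to a few abundant members. As in any bulk measurement, a lower value in sorted P-bodies can reflect fewer particles holding an mRNA or fewer molecules in each, and these cannot be told apart.

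P-body against cytoplasm was tested gene by gene with edgeR's quasi-likelihood test, adjusted over all genes of the table by the Benjamini-Hochberg method. A gene is called higher or lower at an adjusted p under 0.05, and log2 changes are P-body over cytoplasm. In HEK293T cells 21 of 48 members were higher in P-bodies, 12 were lower and 15 were not called, where 19.3% of all genes tested were higher and 22.8% lower. In liver bud progenitors 20 were higher and 14 lower (all genes, 21.4% and 17.1%), and in neurons 19 were higher and 7 lower (all genes, 14.6% and 14.1%). In mouse ES cells 27 of 46 members were higher and 7 lower (all genes, 25.8% and 20.6%).

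Most members were well detected, which raises the share called, so the calls were also read at a mean level of 5 CPM or more. There, 21 of 41 members were higher in HEK293T P-bodies (all such genes, 39.1%) and 12 lower (40.4%), and 19 of 42 were higher in liver bud progenitors (41.8%) and 14 lower (27%). In neurons 17 of 42 were higher (23.4%) and 7 lower (28.9%), and in mouse ES cells 26 of 39 were higher (42.7%) and 7 lower (23.1%). The median log2 change over all members was 0.23 for HEK293T cells, 0.0008 for liver bud progenitors, 0.14 for neurons and 0.44 for mouse ES cells, beside medians of -0.0072, -0.092, 0.19 and -0.11 over all genes tested. At 5 CPM or more the medians were 0.28, 0.060, 0.069 and 0.44 over members and -0.024, 0.17, -0.21 and 0.14 over all such genes, so that members lay above all genes in liver bud progenitors and below them in neurons only when scarce genes were counted. The level of a member did not overlap between the fractions for 41 of 48 in HEK293T cells (64.8% of all genes), 44 in liver bud (64.1%), 37 in neurons (65%) and 41 of 46 in mouse ES cells (73%). At 5 CPM or more it did not overlap for 37 of 41 members in HEK293T cells (8926 of 9859 genes), 38 of 42 in liver bud (8984 of 10589), 33 of 42 in neurons (8293 of 10290) and 38 of 39 in mouse ES cells (7721 of 9176), shares near those of all such genes in HEK293T cells and neurons. The mouse ES split depended on scaling, since 17 members were higher and 15 lower when counts were scaled by library size only.

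**Figure D1:**
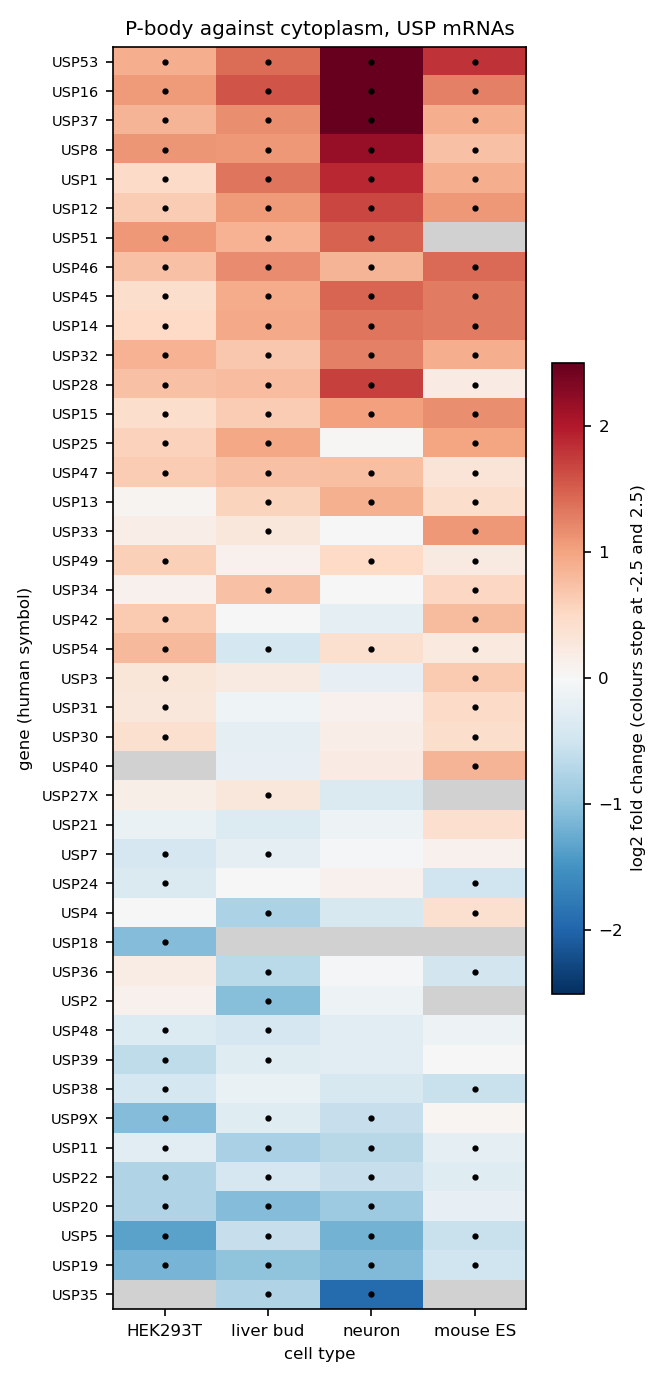
Heat map of log2 fold change, P-body against cytoplasm, for the 43 members with a mean of at least 5 CPM in at least 1 human cell type (rows, ordered by mean change) in 4 cell types (columns), with red higher and blue lower in P-bodies. Black dots mark an adjusted p under 0.05 in edgeR's quasi-likelihood test, and the 9 grey cells have a mean under 5 CPM or no gene in the table; USP53, USP16, USP37 and USP8 sit at the top and USP5, USP19 and USP35 at the bottom.

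In all 4 cell types, 14 members were enriched in P-bodies: USP1, USP8, USP12, USP14, USP15, USP16, USP28, USP32, USP37, USP45, USP46, USP47, USP51 and USP53. That was 30.4% of the 46 members tested in all 4, where 1288 of 12616 genes matched by symbol (10.2%) were. Another 4 members (8.7%) were depleted in all 4, USP5, USP11, USP19 and USP22, where 5.26% of genes were. Where the mean was 5 CPM or more in each cell type, 13 of 37 members (35.1%) were enriched throughout, against 19.4% of all such genes, and 4 (10.8%) were depleted throughout, against 9.5%. With scaling by library size only, USP28, USP47 and USP51 left the enriched set and USP20, USP35 and USP9X joined the depleted set; DESeq2 also dropped USP28, USP51 and USP11.

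USP8, USP16, USP37 and USP53 were the 4 enriched members with the smallest p in HEK293T cells and in liver bud progenitors. USP8 (chr15:50424380-50514421, hg38, plus strand), which deubiquitinates receptors on endosomes, stood at 588 and 618 CPM in HEK293T P-bodies and at 271 and 294 CPM in cytoplasm. In liver bud progenitors it stood at 718 and 765 against 355 and 344 CPM, in neurons at 489.9 and 515 against 109 and 115 CPM, and in mouse ES cells at 266 and 273 against 166 and 159 CPM. P-body libraries lay above cytoplasm libraries in each cell type. The log2 change was 1.09 ± 0.06 (SE, n = 2 per group; adjusted p = 3.05e-25, edgeR) in HEK293T cells, 1.08 ± 0.05 (4.05e-27) in liver bud progenitors, 2.17 ± 0.09 (4.71e-09) in neuron and 0.73 ± 0.05 (5.4e-12) in mouse ES cells.

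USP16 (chr21:29024629-29054488, plus), a histone H2A deubiquitinase, had 556 and 567 CPM in HEK293T P-bodies and 282 and 254 CPM in cytoplasm, and 192 and 181 against 65.7 and 60.5 CPM in liver bud progenitors. In neurons it had 87.5 and 103 against 12.7 and 18.6 CPM, and Usp16 had 32.0 and 28.8 against 11.9 and 13.4 CPM in mouse ES cells. No fraction overlapped the other, and the neuron P-body mean was 6.11-fold above cytoplasm (log2 2.61 ± 0.19, edgeR adjusted p = 4.96e-07) beside 2.09-fold in HEK293T, 2.96-fold in liver bud and 2.4-fold in mouse ES cells. Its relative USP45, a DNA repair protease, was enriched in HEK293T cells by 0.44 on the log2 scale, in liver bud progenitors by 0.93, in neurons by 1.46 and in mouse ES cells by 1.29. The neuron call of USP45 rested on few reads, at 8.49 and 9.89 against 2.17 and 4.5 CPM, and was lost without cytoplasm replicate 1 (log2 1.01, adjusted p = 0.357).

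USP37 (chr2:218450251-218568351, minus), which stabilises cyclin A in the cell cycle, had 300.4 and 290.0 CPM in HEK293T P-bodies against 168 and 159 CPM, and 225 and 224 against 100.2 and 98.8 CPM in liver bud progenitors. In neurons it had 170.2 and 186 against 28.6 and 27.0 CPM, and in mouse ES cells 484 and 476 against 259.5 and 254 CPM. The neuron values were the furthest apart, 6.41-fold (log2 2.68 ± 0.12, edgeR adjusted p = 1.11e-08), and the 3 other cell types lay at 1.8-fold, 2.25-fold and 1.87-fold in the order above.

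USP53 (chr4:119212587-119295518, plus), a tight junction associated member whose loss causes cholestatic liver disease, had 571 and 593 CPM in HEK293T P-bodies against 322 and 299 CPM, and 600.0 and 614 against 233 and 226 CPM in liver bud progenitors. In neurons it was much scarcer, at 39.5 and 41.0 against 4.25 and 6.9 CPM, and in mouse ES cells it was at 1091 and 1066 against 314 and 306 CPM. It was the member with the smallest p in liver bud progenitors (log2 1.41 ± 0.06, edgeR adjusted p = 1.38e-31) and in mouse ES cells (1.80 ± 0.04, 6.17e-21). The neuron change was 2.85 ± 0.27 (3.55e-06), from low cytoplasm levels.

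**Figure D2:**
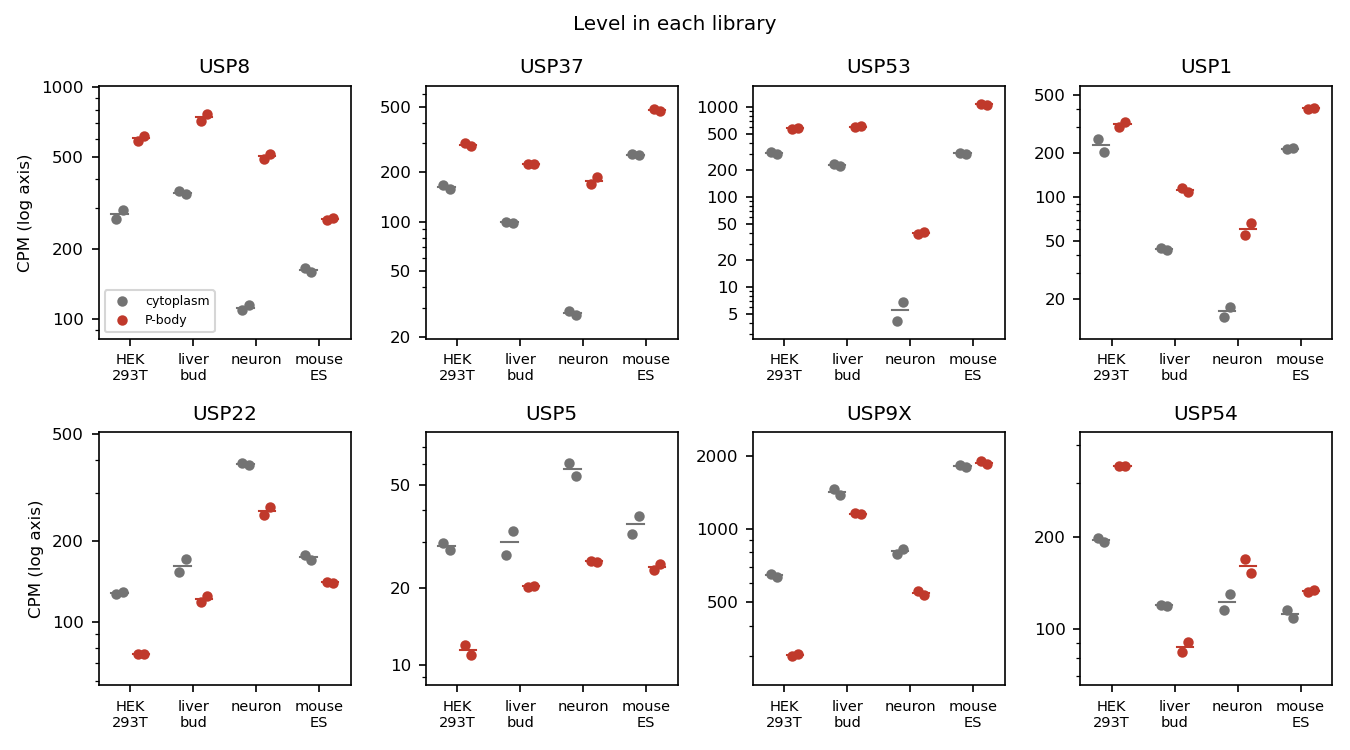
CPM on a log axis of 8 members in each library (points), with the group mean as a line, in cytoplasm (grey) and P-bodies (red) of 4 cell types. USP8, USP37, USP53 and USP1 lie higher in P-bodies throughout, USP22 and USP5 lie lower throughout, USP9X is lower in the 3 human cell types, and USP54 is lower in liver bud progenitors and higher in the others, a mouse ES direction that turned with scaling by library size only.

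The DNA repair and chromatin proteases were listed as USP1, USP3, USP7, USP11, USP16, USP21, USP22, USP27X, USP28, USP45, USP47, USP48, USP49 and USP51. Of these 14, 8 were higher and 4 lower in HEK293T P-bodies (39.1% and 40.4% of all genes at 5 CPM or more), 7 and 4 in liver bud (41.8% and 27%), 7 and 2 in neurons (23.4% and 28.9%) and 8 and 2 in mouse ES cells (42.7% and 23.1%). The list itself was not cut by level, and in mouse ES cells Usp27x and Usp51, the latter called higher, lay under 5 CPM. Usp49, also called higher there, shares 52.4% of the 31-base words of its transcript with other genes, chiefly Gm20517, so its counts are uncertain. USP1, which with its partner WDR48 deubiquitinates FANCD2 and PCNA, had 302 and 323 CPM in HEK293T P-bodies against 248 and 203 CPM in cytoplasm, 116 and 108 against 44.5 and 43.5 CPM in liver bud, 54.9 and 66.2 against 15.2 and 17.8 CPM in neurons, and 400.1 and 405 against 211 and 215 CPM in mouse ES cells. P-body libraries were the higher ones in each case, with log2 changes of 0.47 ± 0.06, 1.34 ± 0.09, 1.88 ± 0.19 and 0.92 ± 0.04. USP28, a stabiliser of MYC, changed by 0.74, 0.78, 1.72 and 0.21 in the same order, and USP47, which acts in base excision repair, by 0.63, 0.73, 0.74 and 0.33, and the mouse values of both turned negative (-0.19 and -0.075) with scaling by library size only. USP7, which stabilises MDM2 and p53, was lower in HEK293T (-0.43) and liver bud P-bodies (-0.24). The liver bud call of USP7 was lost with DESeq2 (-0.26, adjusted p = 0.0751), and the value was -0.15 without P-body replicate 2. Its values of -0.027 in neurons and 0.12 in mouse ES cells were not called.

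USP22 (chr17:20999596-21043760, minus), the histone deubiquitinase of the SAGA coactivator, was depleted from P-bodies throughout. It had 75.7 and 75.6 CPM in HEK293T P-bodies against 127 and 129 CPM, 118 and 125 against 153 and 170 CPM in liver bud, 249 and 268 against 388 and 382 CPM in neurons, and 140.1 and 139.5 against 177 and 169 CPM in mouse ES cells. The fractions did not overlap, and P-bodies were 1.69-fold, 1.33-fold, 1.49-fold and 1.24-fold lower. USP51, its close relative that also acts on histone H2A, went the other way, with log2 changes of 1.08, 0.87, 1.47 and 0.87. USP51 was at 15.1 and 12.1 against 3.68 and 6.1 CPM in neurons, a call lost without cytoplasm replicate 1 (log2 1.14, edgeR adjusted p = 0.159). USP27X, the third of these relatives, was called higher in liver bud progenitors (0.29) and was not called in the other cell types.

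Members of ubiquitin recycling were called in both directions. USP5 (chr12:6852148-6866632, plus), which takes apart free ubiquitin chains, had 12 and 11.0 CPM in HEK293T P-bodies against 29.9 and 28.1 CPM, and 20.2 and 20.3 against 26.8 and 33.0 CPM in liver bud progenitors. In neurons it had 25.4 and 25.1 against 61.0 and 54.1 CPM, and in mouse ES cells 23.4 and 24.7 against 32.3 and 38.0 CPM. P-body libraries were lower in each cell type, by 2.53-fold, 1.48-fold, 2.28-fold and 1.46-fold, and the liver bud call was lost without cytoplasm replicate 2 (log2 -0.45, edgeR adjusted p = 0.053). USP13, its close relative, was higher in P-bodies of liver bud (0.55), neuron (0.89) and mouse ES cells (0.44), and was not called in HEK293T cells (0.076). USP14, the protease bound to the proteasome, was higher in all 4 cell types, by 0.50, 0.95, 1.33 and 1.29.

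USP12 and USP46 are close relatives that both need WDR48, and both were enriched in all 4 cell types. USP46 had 91.0 and 95.6 CPM in HEK293T P-bodies against 57.2 and 54.6 CPM, 118 and 124 against 55.5 and 51.2 CPM in liver bud, 28.6 and 28.6 against 17.4 and 14.5 CPM in neurons, and 133 and 131 against 49.1 and 49.6 CPM in mouse ES cells. The fractions were apart in each, and the log2 changes were 0.74, 1.18, 0.84 and 1.42, although the neuron call was lost without either cytoplasm library (adjusted p = 0.0604 and 0.193, edgeR). USP12 changed by 0.64, 1.07, 1.67 and 1.08. Their partner mRNAs were enriched as well, where WDR48 changed by 0.79, 1.18, 1.31 and 1.17 and WDR20 by 1.29, 1.11, 0.96 and 0.84, each called by edgeR in all 4 cell types.

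Among membrane-bound members, USP19, which is anchored in the endoplasmic reticulum, was depleted throughout (-1.16, -1.01, -1.1 and -0.51). It had 18.9 and 18.1 CPM in HEK293T P-bodies against 41.1 and 41.5 CPM, 19.0 and 20.1 against 37.8 and 40.7 CPM in liver bud, 31.2 and 24.6 against 63.6 and 56.3 CPM in neurons, and 56.2 and 56.2 against 76.3 and 83.2 CPM in mouse ES cells. Cytoplasm libraries were higher in every cell type. USP32, linked to Golgi and endosomes, was enriched by 0.87, 0.67, 1.25 and 0.91. It shares 28.2% of its 31-base words with other genes, chiefly USP6, so its counts and those of USP6 are uncertain. USP20, a regulator of receptor recycling, was lower in the 3 human cell types (-0.76, -1.08 and -0.90), and its relative USP33 was higher in liver bud (0.29) and mouse ES cells (1.08).

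USP4, USP11 and USP15 share an N-terminal domain structure and have roles in TGF-beta signalling and DNA repair, yet they did not move together. USP11 (chrX:47232866-47248328, plus) had 88.0 and 82.6 CPM in HEK293T P-bodies against 98.9 and 107 CPM, and 87.4 and 80.7 against 139 and 154 CPM in liver bud progenitors. In neurons it had 405 and 400.03 against 669 and 633 CPM, and in mouse ES cells 89.3 and 81.7 against 102 and 96.5 CPM. The P-body libraries were lower each time (-0.27, -0.80, -0.69 and -0.22), but the HEK293T call was lost with DESeq2 (adjusted p = 0.108) and without replicate 2 of either fraction (adjusted p = 0.0861 and 0.0536, edgeR), and the mouse call with DESeq2 (0.0856) and on leaving out P-body replicate 2 (0.253) or cytoplasm replicate 1 (0.0849). USP15 was higher throughout (0.44, 0.63, 1.02 and 1.16).

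USP4 was called in opposite directions in 2 cell types. It had 43.2 and 48.2 CPM in liver bud P-bodies against 85.8 and 73.7 CPM in cytoplasm, and 137 and 143 against 109 and 102 CPM in mouse ES cells. P-body libraries were the lower ones in liver bud (log2 -0.80 ± 0.10, edgeR adjusted p = 1.77e-10) and the higher ones in mouse ES cells (0.41 ± 0.06, 3.94e-06), a call that was lost when counts were scaled by library size only (0.0070, adjusted p = 0.929). Its values in HEK293T cells (0.0038) and neurons (-0.40) were not called, but the neuron value was called in the fit of all 12 human libraries (-0.51, edgeR adjusted p = 0.00384), with a replicate block (-0.42, 0.000388) and on leaving out replicate 2 of the P-bodies (-0.66, 0.000106) or of the cytoplasm (-0.51, 0.025).

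USP54 (chr10:73497538-73626117, minus), the relative of USP53, was the other member called both ways. It had 342 and 341 CPM in HEK293T P-bodies against 199 and 193 CPM, 84.2 and 90.4 against 119.6 and 119 CPM in liver bud, 169.7 and 152 against 116 and 129.7 CPM in neurons, and 132 and 134 against 115 and 109 CPM in mouse ES cells. The P-body libraries were below cytoplasm in liver bud progenitors and above it in the other cell types. The changes were 0.80, -0.45, 0.39 and 0.25; the neuron call was lost without cytoplasm replicate 1 (0.30, edgeR adjusted p = 0.248), and the mouse value turned to -0.15 with scaling by library size only. The difference between neurons and liver bud progenitors is tested below, and differences from HEK293T and mouse ES cells were not tested.

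USP9X (chrX:41085445-41236579, plus) is a large protease of signalling and cell survival proteins. By the length of the annotated transcript used for each gene, it was the most abundant or second most abundant member in each cytoplasm. It had 299.8 and 306 CPM in HEK293T P-bodies against 655 and 634 CPM, 1164 and 1148 against 1458 and 1379 CPM in liver bud, 556 and 533 against 789.6 and 827 CPM in neurons, and 1894 and 1857 against 1832 and 1796 CPM in mouse ES cells. It was depleted in the human cells by a log2 change of -1.09 ± 0.05 (edgeR adjusted p = 7.3e-26), -0.30 ± 0.04 (6.89e-08) and -0.57 ± 0.08 (8.57e-05). The 2 mouse fractions were apart by less than in any human cell type and the value of 0.048 was not called, though it was -0.35 with scaling by library size only.

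In mouse ES cells the depleted members also included Usp24, a large protease related to Usp9x, at 114 and 117 CPM in P-bodies against 165 and 160.2 CPM (log2 -0.49 ± 0.06, edgeR adjusted p = 6.64e-08), and Usp36, a nucleolar protease, at 42.9 and 42.1 against 60.6 and 56.8 CPM (-0.47 ± 0.09, 8.64e-05). Both lay lower in each P-body library than in either cytoplasm library. Usp45 had 348 and 334 against 147 and 132 CPM, Usp15 482 and 447 against 198 and 217 CPM, and Usp14 285 and 268 against 118 and 107 CPM. These 3 were enriched with log2 changes of 1.29 ± 0.05, 1.16 ± 0.05 and 1.29 ± 0.06.

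Scarce members gave calls that a single library could make. In neurons USP26, a testis-expressed member, had 44 and 2 counts in P-bodies and 2 and 0 in cytoplasm, and USP6 had 13 and 74 counts against 3 and 7. Both were called higher by edgeR, but USP26 was not without P-body replicate 1 (adjusted p = 0.769) and USP6 was not without P-body replicate 2 (0.293). P-body against cytoplasm gave no call in any cell type for 3 members, USP21, USP43 and USP50, the last with at most 3 counts in any human library.

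Across 18 pairs of close relatives, 4 pairs were called in the same direction and 3 in opposite directions in HEK293T cells, 4 and 8 in liver bud progenitors, and 4 and 3 in neurons. In mouse ES cells 6 of 17 pairs were called the same way and 5 opposite ways. USP12 with USP46 and USP16 with USP45 went the same way in all 4 cell types, and USP22 with USP51 and USP11 with USP15 went opposite ways in all 4. USP5 with USP13 went opposite ways in 3. The neuron pairs called the same way include USP6 with USP32, which rests on the scarce USP6 and on genes that share sequence. Other pairs, such as USP26 with USP29, hold scarce members. The pairs share members, so they are not independent of each other, and no share over other gene pairs was computed. The human table also lists antisense genes of USP2, USP3, USP12, USP27X, USP30 and USP46, and whether counting used strand was not stated, so reads of these genes and their antisense partners cannot be told apart.

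Members enriched in all 4 cell types and members depleted in all 4 were apart in base composition. The GC content of the transcript was 38.8% at the median (35.5% to 43.8%, 14 members) in the human enriched members and 57.2% (53.2% to 59.2%, 4 members) in the depleted ones. For the mouse transcripts the values were 43.9% (39.2% to 49.6%) and 53.5% (50.7% to 57.5%), and neither species showed an overlap. The 3′ UTR held 35.3% GC (27.9% to 40.0%) against 56.4% (50.5% to 60.0%) in human.

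Over members with a mean of at least 5 CPM, the log2 change fell with transcript GC, with Spearman's rho of -0.56 in HEK293T cells (41 members), -0.85 in liver bud (42), -0.75 in neuron (42) and -0.68 in mouse ES cells (39). Over all such genes the values were -0.57, -0.70, -0.66 and -0.69. The 3′ UTR was longer in the more enriched members, with rho of 0.41, 0.39, 0.46 and 0.25, beside 0.28, 0.09, 0.21 and 0.23 over all genes. These correlations run across genes, which are not independent replicates and share libraries, and each gene is represented by the transcript with the longest coding sequence.

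**Figure D3:**
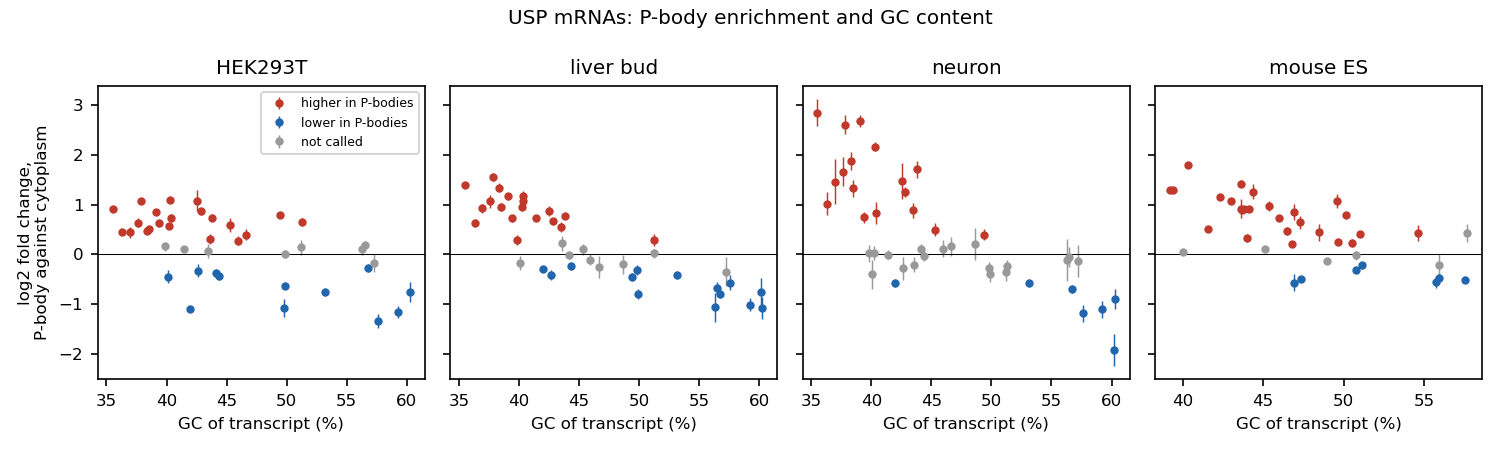
Log2 fold change, P-body against cytoplasm (y axis, bars show SE), against the GC content of the transcript in percent (x axis) for members with a mean of at least 5 CPM in each of 4 cell types. Red members were called higher and blue lower by edgeR at an adjusted p under 0.05; members below 40% GC lie mostly above 0, and those above 55% GC mostly below it.

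The order of members was alike between cell types. Over members with a mean of at least 5 CPM in both, Spearman's rho of the log2 change was 0.847 between HEK293T cells and neurons (40 members), 0.842 between liver bud progenitors and neurons (42), 0.796 between liver bud and mouse ES cells (38), 0.74 between HEK293T and liver bud (40), 0.737 between neuron and mouse ES cells (38) and 0.722 between HEK293T and mouse ES cells (37). Over all such genes the values were 0.794, 0.641, 0.552, 0.501, 0.672 and 0.709. The pairs of cell types share no library, although all carried the same tagged protein.

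Neurons and liver bud progenitors came from the same ES line and library type, so the difference in P-body enrichment was tested as an interaction over 8 libraries (edgeR). In all, 7 members were more enriched in neurons and 3 less, where 9.21% and 8.5% of all genes were. All 10 were among the 42 members at 5 CPM or more, where 13.8% and 16.3% of all such genes were called. USP37 differed by a log2 value of 1.5 ± 0.13 (adjusted p = 1.33e-06), USP53 by 1.45 ± 0.18 (4.51e-05), USP8 by 1.08 ± 0.10 (2.66e-06), USP16 by 1.04 ± 0.20 (0.00178), USP28 by 0.93 ± 0.16 (0.000728), USP54 by 0.84 ± 0.14 (0.000661) and USP32 by 0.58 ± 0.12 (0.00357). The median difference was 0.38 over members and 0.23 over all genes, and 0.21 and -0.11 at 5 CPM or more. With scaling by library size only, 19 members were higher and 2 lower while the median of all genes moved to 0.58, and without neuron P-body replicate 1 the counts were 11 and 7, without replicate 2 they were 8 and 9.

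USP25, the relative of USP28, was one of the 3 less enriched in neurons. It had 381 and 371 CPM in liver bud P-bodies against 199 and 187 CPM in cytoplasm, and 56.2 and 56.7 against 53.7 and 57.0 CPM in neurons. The liver bud fractions were apart and the neuron fractions overlapped, and the difference was -0.94 ± 0.12 (edgeR adjusted p = 5.27e-05). USP34, a large protease of Wnt signalling, had 882 and 872 against 535 and 515 CPM in liver bud and 317 and 333 against 312 and 341 CPM in neurons, with the same kind of overlap and a difference of -0.75 ± 0.10 (5.09e-05). USP9X differed by -0.28 ± 0.09 (0.0366), a call lost with other size factors (RLE, adjusted p = 0.07), with a filter on low counts (0.257) and on leaving out each of the 4 liver bud libraries in turn (0.0585 to 0.164), and its value turned to 0.076 with scaling by library size only.

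**Figure D4:**
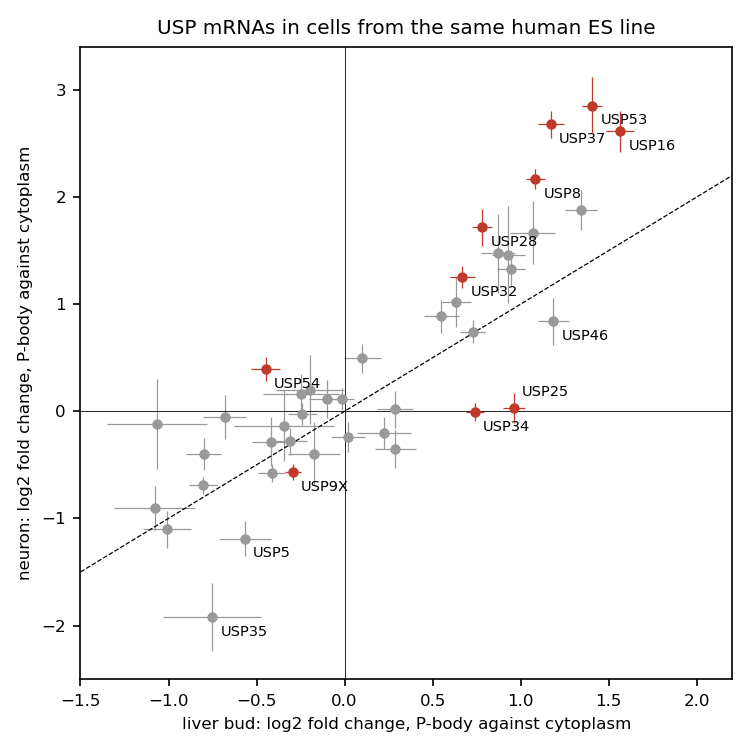
Log2 fold change, P-body against cytoplasm, in neurons (y axis) against liver bud progenitors (x axis) for 42 members with a mean of at least 5 CPM in both, with SE bars and a dashed line of equal change. The 10 red members passed the test of the difference (edgeR, adjusted p under 0.05): 7 lie above the line, USP37 and USP53 furthest, and USP25, USP34 and USP9X lie below it.

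The cytoplasm itself differed between these cell types. In neuron against liver bud cytoplasm, 17 members were higher and 22 lower (all genes, 26% and 25.8%; edgeR over 4 libraries), or 10 and 26 with scaling by library size only, and 43 of 48 did not overlap (all genes, 72.6%). At 5 CPM or more 17 of 42 members were higher (all such genes, 42.3%) and 20 lower (35.7%). USP11 was 5.13-fold higher in neurons (log2 2.36 ± 0.08, adjusted p = 7.44e-40), USP22 2.75-fold (1.46 ± 0.08, 5.6e-27) and USP3, a histone deubiquitinase, 2.85-fold (1.51 ± 0.15, 4.61e-15). USP53 was 35.7-fold lower (-5.16 ± 0.14, 4.88e-47), USP45 12.5-fold (-3.64 ± 0.21, 3.38e-26) and USP28 9.13-fold (-3.19 ± 0.10, 3.62e-41).

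Beside the interaction, which uses the same cytoplasm libraries, the cytoplasm values of its members were -1.63 for USP37, -1.44 for USP8, -1.81 for USP16, -0.37 for USP32, 0.25 for USP54, -1.59 for USP25, -0.47 for USP34 and -0.60 for USP9X. Marker lists moved with this comparison too. The summed level of 6 pluripotency mRNAs was 1048 to 1061 CPM in liver bud cytoplasm and 79.1 to 80.7 CPM in neuron cytoplasm, with none of the 6 at 0. The sum of 4 neural progenitor mRNAs was 302 to 313 CPM in neuron cytoplasm and 565 to 576 CPM in neuron P-bodies, against 56.0 to 60.0 CPM in liver bud cytoplasm. The list was split between the neuron fractions. PAX6 was higher in P-bodies (mean 399 against 88.5 CPM), and SOX1 was at 21.6 against 18.1 CPM. NES (112 against 208 CPM) and HES5 (5.99 against 11.2 CPM) were lower in P-bodies. The part of these markers' cells in the USP differences was not tested.

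Levels per length, as CPM per kilobase of transcript, ranked the members within each cytoplasm. The length was that of the annotated transcript with the longest coding sequence. It was 19026 bases for human USP8 and 4154 for mouse Usp8. The SD covers the spread between libraries only, and ranks with other transcripts were not tested. In HEK293T cells USP16 led at 89.4 ± 6.63 (SD, n = 2), then USP9X at 76.9 ± 1.79 and USP39, a splicing factor, at 63.0 ± 1.52, which did not differ from USP1 at 62.5 ± 8.86 beyond their spread. In liver bud progenitors USP9X led at 169 ± 6.64, far above USP28 at 61.6 ± 1.05 and USP34 at 45.0 ± 1.26, the last within the spread of USP11 at 43.9 ± 3.14. In neurons USP11 led at 195 ± 7.75, above USP9X at 96.4 ± 3.13 and USP22 at 74.2 ± 0.839. In mouse ES cells Usp9x led at 153 ± 2.15, and Usp34 at 59.6 ± 1.4 and Usp1 at 59.6 ± 0.899 were not apart.

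Other genes of the ubiquitin system were read from lists. Of 35 deubiquitinases of other families, 17 were higher and 10 lower in HEK293T P-bodies, 18 and 2 in liver bud and 13 and 6 in neurons, and 14 and 4 of 34 in mouse ES cells. Of all genes 19.3% and 22.8% were higher and lower in HEK293T cells, 21.4% and 17.1% in liver bud, 14.6% and 14.1% in neurons and 25.8% and 20.6% in mouse ES cells, and at 5 CPM or more the shares were 39.1% and 40.4%, 41.8% and 27%, 23.4% and 28.9%, and 42.7% and 23.1%. YOD1 (liver bud 1.43, neuron 2.01), BRCC3 (HEK293T 0.86, liver bud 1.28, mouse ES 1.66) and the histone deubiquitinase MYSM1 (HEK293T 0.86, mouse ES 1.39) were among the higher ones, and OTUD5 was lower in all 4 cell types (-1.42, -0.60, -1.15 and -0.72). UBA1, the main ubiquitin-activating enzyme, was lower throughout (-1.18, -0.99, -0.77 and -0.32). The other gene in the list of 2 activating enzymes went the other way. It was higher in liver bud (0.46), neuron (0.48) and mouse ES cells (1.03) and was not called in HEK293T cells (0.079).

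Of 6 partner proteins of the family, to be read against the same shares, 3 were higher and 2 lower in HEK293T cells, 4 and 2 in liver bud, 3 and 2 in neurons and 3 and 0 in mouse ES cells. ATXN7L3, which activates USP22, USP27X and USP51, was lower in the 3 human cell types (-1.19, -0.63 and -1.36), and its mouse value of -0.23 was not called. ATXN7, which anchors the same module in SAGA, was higher in the 3 human cell types (1.18, 0.28 and 1.1).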

How the data were processed

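Counts per gene were the deposited unit, as whole reads in a human (hg38) and a mouse (mm10) table. The authors sequenced paired ends, aligned and counted with nf-core rnaseq and salmon for random-primed libraries or hisat and featureCounts for polyA libraries, and dropped genes under 10 reads over all samples. The authors' tables of their own comparisons (fold changes and p-values from DESeq2) were not used. The study calls its replicates biologically independent, the labels do not say whether these were separate cultures, and p-values measure the spread between these libraries.

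TMM factors and quasi-likelihood fits were made with edgeR 4.0.16 in R 4.3.3 on the 4 libraries of each comparison (8 for the interaction), leaving out genes with 0 counts in all of them, with no low-count filter and Benjamini-Hochberg adjustment over all genes. CPM values use these factors, and SE is the log2 change over the root of F. DESeq2 1.42.0, RLE factors, library size only, filterByExpr, a replicate block, a fit of all 12 human libraries and leaving out each library were alternatives. Code was tested on simulated data. Coordinates, UTRs and sequences came from GENCODE 44 (hg38) and 21 (mm10), per the coding transcript with the longest coding sequence.

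Members and lists were chosen with earlier results of these data known. Named members were, per comparison, the called members with a mean of at least 5 CPM, no overlap and the smallest p (4 per direction between fractions, 3 otherwise), those called alike in all 4 cell types or in opposite directions, the 3 highest per length, a fixed set of 9 (USP1, USP5, USP7, USP9X, USP12, USP14, USP22, USP37 and USP46) and pairs of relatives. Floors cover counting error only, while SE and SD include the spread between libraries. A list of ubiquitin genes is not reported here.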

Additional observations from a re-analysis of the deposited data

Results flagged for a closer look

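In 10 members the P-body enrichment of neurons differed from that of liver bud progenitors by edgeR's quasi-likelihood interaction over 8 libraries, adjusted over all genes. Of all genes 9.21% were more enriched in neurons and 8.5% less. At 5 CPM or more the shares of all such genes were 13.8% and 16.3%. Neurons exceeded liver bud progenitors by a log2 value of 1.5 for USP37, 1.45 for USP53, 1.08 for USP8, 1.04 for USP16, 0.93 for USP28, 0.84 for USP54 and 0.58 for USP32. Neurons were below liver bud progenitors by a log2 value of -0.94 for USP25, -0.75 for USP34 and -0.28 for USP9X. The USP9X call was lost with RLE factors (edgeR adjusted p = 0.07) and with filterByExpr (0.257). Its value turned to 0.076 with scaling by library size only.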

How the results depend on the processing

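Of 126 recomputed counts of members called, 116 stayed within 1.5 times the count reported, and of 1234 recomputed values of called members 1184 kept their direction and call. With scaling by library size only, 17 members were higher and 15 lower in mouse ES P-bodies, 19 were higher in the difference between neurons and liver bud progenitors, and 10 were higher in neuron cytoplasm. That scaling moved the median of all genes to -0.13 (HEK293T), -0.28 (liver bud), 0.35 (neuron), -0.51 (mouse ES), 0.58 (the difference) and -0.52 (cytoplasm), and it turned the values of Usp28 (-0.19), Usp47 (-0.075), Usp54 (-0.15), Usp7 (-0.29) and Usp9x (-0.35) in mouse ES cells, USP4 (-0.13) in HEK293T cells, USP7 (0.14) in neurons, USP9X (0.076) in the difference and USP54 (-0.13) in cytoplasm. Usp9x was -0.037 in mouse ES cells with filterByExpr, and USP7 in neurons was 0.029 with DESeq2, 0.029 with RLE factors and 0.076 with filterByExpr. In the fit of all 12 human libraries 13 members were lower in neuron P-bodies and 6 in the difference. The cause of these moves was not tested. Leaving out 1 library at a time gave 7 to 11 members higher and 2 to 9 lower in the difference, 13 to 18 higher in neuron P-bodies, -0.019 to 0.068 for USP4 in HEK293T cells and -0.058 to 0.0038 for USP7 in neurons. The methods tie each P-body sort to its own material before sorting, but the labels do not say that replicate numbers mark this, and same-numbered deviations correlated at only -0.022 to 0.061, so pairing was not shown. The fit with a replicate block gave 5 members lower in the difference in place of 3, called USP4 in neurons (-0.42) and Usp7 in mouse ES cells (0.12), and lost USP54 in cytoplasm (0.25). Depth limits the members under 5 CPM, such as USP26, USP29 and USP50.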
